A study of Mus musculus with 4 samples.

Results

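Metallothioneins and zinc exporters are the proteins that keep free zinc low in the cytosol. The genes described here are 3 metallothionein genes (Mt1, Mt2 and Mt3) and 2 genes of the ZnT family (Slc30a1 and Slc30a3). They were chosen by symbol, and all 5 were found among the 15409 gene rows listed for each library. All 5 passed the filter on low values that precedes the tests, a mean of at least 1 CPM, where CPM is the read count scaled to a library total of 1000000 reads.

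RNA was sequenced from the septal region of the mouse brain in 4 libraries. Of these, 2 came from TCRb-/- mice, in which the gene for the T cell receptor beta chain is disrupted, and 2 from wild-type (WT) mice. Every animal, WT included, had been confined in a restraining cone for 30 min on 3 days, with tissue taken 1.5 h after the final session, so that no unstressed group was compared. A library is a pool of tissue from 4 to 5 mice, and each genotype has 1 pool in experiment 1 (replicate 1) and 1 in experiment 2 (replicate 2). The labels used here give no age, sex or strain, and RNA was taken from a lysate cleared of nuclei and debris. In a bulk lysate, fewer cells of a type and less RNA per cell cannot be told apart.

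Metallothioneins are small proteins rich in cysteine that bind zinc and copper. Transcription of Mt1 and Mt2 is switched on by the zinc-sensing factor MTF-1, which binds metal response elements (MREs) in their promoters, and also by glucocorticoid hormones, which restraint stress releases. Mt3 is the brain-enriched member of the family and is not induced by metals in the same way. Slc30a1 encodes ZnT1, which exports zinc across the plasma membrane and is itself an MTF-1 target. Slc30a3 encodes ZnT3, which loads zinc into synaptic vesicles of glutamatergic neurons, above all in the cortex and hippocampus.

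Libraries held between 19988137 and 26210790 reads. Trbc2, a constant segment of the disrupted receptor chain, had 0 reads in both TCRb-/- libraries (at most 3 reads, or 0.122 and 0.150 CPM) and 169 and 86 reads in WT replicates 1 and 2. Septal markers were present, with 6 of 7 listed and a summed level between 332 and 374 CPM. Markers of neighbouring tissue were present too. Choroid plexus markers summed to between 1289 and 6809 CPM, striatal markers to between 524 and 2845 CPM and thalamic markers to between 686 and 1671 CPM. In experiment 1, the sums were 2113, 2845 and 708 CPM in TCRb-/- and 1289, 2532 and 686 CPM in WT, in that order. In experiment 2, they were 6809, 524 and 1671 CPM in TCRb-/- and 4137, 1374 and 1154 CPM in WT. The pools of an experiment thus differed in these markers, and their part in the genotype ratios was not tested. None of the listed markers of these 3 tissues was at 0 in any library. Permuting the labels of 2 against 2 libraries allows no p under 0.333 in an exact test, and tests therefore rest on limma fitted across 13912 genes. Nothing in the labels says that the pools share no litter or cage, so p-values measure the spread between these pools.

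The 3 metallothionein genes form a cluster on chromosome 8 (GRCm38, plus strand). Mt3 (ENSMUSG00000031760) lies from 94152607 to 94154146, Mt2 (ENSMUSG00000031762) from 94172664 to 94173568 and Mt1 (ENSMUSG00000031765) from 94179082 to 94180327. The end of Mt2 and the start of Mt1 are 5514 bases apart. Slc30a1 (ENSMUSG00000037434) lies on chromosome 1 from 191906767 to 191913247 on the plus strand, and Slc30a3 (ENSMUSG00000029151) on chromosome 5 from 31086106 to 31108237 on the minus strand. All are annotated as protein coding, with 3 exons in the first transcript of each metallothionein gene, 2 in Slc30a1 and 8 in Slc30a3. No stretch of 50 bases in the transcripts of Mt1, Mt3 or Slc30a3 occurs in a transcript of another gene. Of the Mt2 stretches, 45.9% occur on the opposite strand in the antisense gene Gm45774, as do 8.01% of the Slc30a1 stretches in 1700034H15Rik. Gm45774 shares 73.5% of the Mt2 exon bases, and 1700034H15Rik 8.92% of those of Slc30a1. The kit does not mark strand, so Mt2 and Slc30a1 values include any antisense reads that were not set aside. They also lack any reads of their own that were set aside as lying in both genes. Neither antisense gene is a listed row.

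Promoter sequence is shown because Mt1 and Mt2 were the members whose levels did not overlap between genotypes, and both are known targets of a shared factor. The sequences are from RefSeq (GRCm38.p6), 5′ to 3′ on the gene's strand, with matches to the MRE core in capitals. The core was searched as TGCACNC and TGCGCNC on both strands, in a window of 250 bases before to 50 bases after each RefSeq transcript start. Longer stretches are given before the start of Mt1 (from -100 to -16) and of Mt2 (from -230 to -16), and short ones around each other match.
Mt1, chr8:94178989-94179073: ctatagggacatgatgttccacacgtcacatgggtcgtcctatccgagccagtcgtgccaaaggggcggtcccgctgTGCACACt
Mt1, chr8:94179080-94179108: ccagggagctcTGCACTCcgcccgaaaag
Mt1, chr8:94179098-94179126: cgcccgaaaagTGCGCTCggctctgccaa
Mt2, chr8:94172388-94172602: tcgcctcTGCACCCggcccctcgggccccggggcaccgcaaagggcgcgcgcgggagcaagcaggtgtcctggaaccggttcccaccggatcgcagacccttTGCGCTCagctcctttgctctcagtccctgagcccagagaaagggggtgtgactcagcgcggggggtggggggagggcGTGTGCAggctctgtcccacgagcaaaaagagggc
Mt2, chr8:94172611-94172639: gaattcgggtcGTGCGCAggcccaggggc
Mt3, chr8:94152623-94152651: cgggacagcagTGCACACacacggagagc
Slc30a1, chr1:191906727-191906755: acgggggttccGAGTGCAaagcaaagttt
Slc30a1, chr1:191906800-191906828: gcctccgggccGAGCGCAgtcgccgcgga
Slc30a3, chr5:31108304-31108332: gaaactgcgctTGCGCACtttgtagggga

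The Mt2 window held 4 matches, the Mt1 window 3, Slc30a1 2 and Mt3 1. Of the 2 Slc30a3 promoters in the table, the one whose match is shown held 1 and the other 0. Among 32851 mouse promoters of the same length, 0.517% had at least 4 matches, 1.97% at least 3, 7.11% at least 2 and 25.7% at least 1. The Mt1 and Mt2 windows were thus among the few percent with the most copies of these letters, and 1 copy is common. The palindromic glucocorticoid response element, searched as AGAACA, then 3 unspecified bases, then TGTTCT, was in none of the windows and in 3 of the 32851 promoters. With a share of 0.00913%, absence was almost certain for any window, so it says nothing about glucocorticoid control of these genes. Looser spellings and sequence outside the windows were not searched. A match is a run of letters and not a measured binding site. Positions count from the RefSeq start, and another start would shift them.

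**Figure D1:**
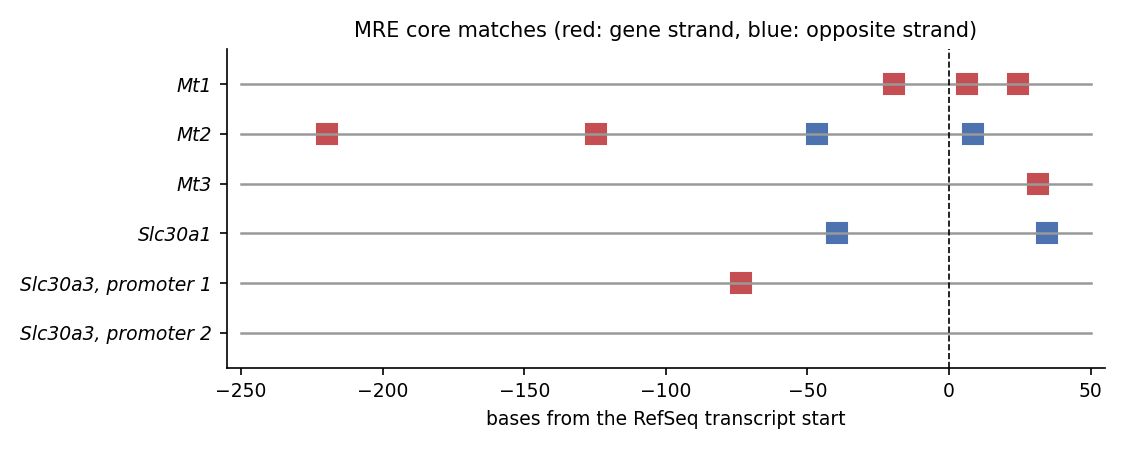
Matches to the MRE core (blocks) in the promoter windows of the 5 genes, by distance in bases from the RefSeq transcript start (dashed line), with red for the gene's strand and blue for the opposite strand. Mt2 has 4 blocks and Mt1 has 3, against 1 for Mt3 and 2 for Slc30a1.

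Metallothionein transcripts were abundant and the 2 zinc exporters were not. Per kilobase of the first annotated transcript, the mean level over the 4 libraries was 891 CPM for Mt1, 754 for Mt3, 159 for Mt2, 5.60 for Slc30a3 and 1.82 for Slc30a1. Mt1 and Mt3 overlapped on that scale, from 823 to 938 CPM per kilobase for Mt1 and from 664 to 851 for Mt3. With the length of all annotated exons instead, they stood at 392 and 379. The other neighbours in this order did not overlap between libraries. Slc30a3 ranged from 3.10 to 8.68 CPM per kilobase and Slc30a1 from 1.75 to 1.98. Mt1, Mt2 and Mt3 together took between 875 and 1052 CPM. Mt2 was the smallest part of that sum in every library, from 7.75% to 8.73%, and Mt1 was the largest, from 47.9% to 53.2%. How reads in the overlap with Gm45774 were counted is not known here, and the Mt2 level and share carry that limit.

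The comparison of genotypes asked whether zinc-buffering and zinc-export genes differed in stressed septal tissue without T cell receptor beta chains. No member passed the adjusted threshold of 0.05 in limma, where the share of all genes called was 0%. With the experiment as a block (the pools are paired by experiment), it was 0.0144%, and no member was among them. At an unadjusted p under 0.05, 0.309% of genes were counted without the block and 5.64% with it. Of the 5 members, 1 was counted at that level with the block, Mt2, and 0 without it. Mt1 and Mt2 were the 2 members in which both TCRb-/- libraries lay above both WT libraries, against 9.76% of all genes. In 0 members did both lie below, against 8.04% of genes. Mt1, Mt2 and Mt3 were higher in TCRb-/- than in WT in both experiments, against 27% of genes, and 0 members were lower in both, against 24.5%.

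Mt2 had 83.4 and 91.8 CPM in the TCRb-/- libraries of experiments 1 and 2, and 67.8 and 81.4 CPM in WT replicates 1 and 2. Every TCRb-/- value was thus above both WT values, with the highest WT and the lowest TCRb-/- library close together. The mean was 87.6 ± 5.96 CPM in TCRb-/- and 74.6 ± 9.59 CPM in WT (SD, n = 2 each), a ratio of 1.17. The difference on the log2(CPM + 1) scale was 0.23 (SE 0.15, adjusted p 1.00 in limma). With the block it was the same size with an SE of 0.076, an unadjusted p of 0.0157 and an adjusted p of 0.848. Of all genes tested, 1.60% had a smaller p in that fit.

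Mt1 had 515 and 504 CPM in the TCRb-/- libraries of experiments 1 and 2, against 452 and 485 CPM in WT. The genotypes did not overlap here either, and the WT library of experiment 1 was the lowest, as it was for Mt2. The mean was 510 ± 7.53 CPM in TCRb-/- and 469 ± 23.7 CPM in WT (SD, n = 2 each), a ratio of 1.09 and a log2 difference of 0.12 (SE 0.12, adjusted p 1.00 in limma). With the block the Mt1 difference had an SE of 0.070 and an adjusted p of 0.873 in limma. In experiment 1 the ratio was 1.14 for Mt1 and 1.23 for Mt2, and in experiment 2 it was 1.04 and 1.13. Both genes thus had the larger ratio in experiment 1, and Mt2 had the larger ratio of the pair in each experiment.

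Mt3 had 369 and 456 CPM in the TCRb-/- libraries of experiments 1 and 2, and 356 and 436 CPM in WT. The genotypes overlapped, since each library of experiment 2 was above each library of experiment 1. Within experiments the ratios were 1.04 and 1.05. The fitted difference was 0.059 (SE 0.17, adjusted p 1.00 in limma, and SE 0.065, adjusted p 0.935 with the block). The counting intervals of the within-experiment log2 ratios lay above 0 for all 3 metallothionein genes in both experiments. Such an interval compares 2 libraries and covers counting error only, with no term for the spread between pools. The library was also amplified and copies of 1 molecule were not marked, so the interval may be too narrow even for counting error.

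Astrocytes are a known site of metallothionein expression. Of 10 astrocyte markers, 0 passed by genotype with or without the block. By direction alone, 7 were higher in TCRb-/- in both experiments and 1 was lower in both, against 27% and 24.5% of all genes. Both TCRb-/- libraries lay above both WT libraries in 4 of the 10 and below them in 0, against 9.76% and 8.04% of genes. The median difference was 0.069 against 0.00069 over all genes. The markers summed to 2827 and 2793 CPM in the TCRb-/- libraries of experiments 1 and 2 and to 2574 and 2606 CPM in WT, with 0 markers at 0. Gfap, an astrocyte filament gene, had the largest difference of the list and Aldh1l1 the lowest, at -0.13 (Gfap 0.30, adjusted p 0.714 in limma with the block). Set against Aldoc, the most abundant of these markers, Mt2 stood at 0.0535 and 0.0574 in TCRb-/- and at 0.0472 and 0.0550 in WT, and Mt1 at 0.331 and 0.315 against 0.315 and 0.328. On that ratio the genotypes overlapped for both genes. Within experiments, the Mt2 ratio was higher in TCRb-/- in both, and the Mt1 ratio was higher in experiment 1 and lower in experiment 2. Choroid plexus markers were higher in TCRb-/- in both experiments for 10 of 10 genes (median 0.56), and ependymal markers for 5 of 5 tested. Ttr, the most abundant choroid plexus marker, was 1 of the 2 genes of the series called by genotype with the block (0.85, adjusted p 0.0323 in limma), and the one called higher in TCRb-/-. The other was Trbc2 of the disrupted chain (-2.59, adjusted p 0.0323 in limma with the block), which did not pass without the block. Ttr had 1204 and 4478 CPM in TCRb-/- and 638 and 2591 CPM in WT. The part of these cell types in the metallothionein values was not tested.

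**Figure D2:**
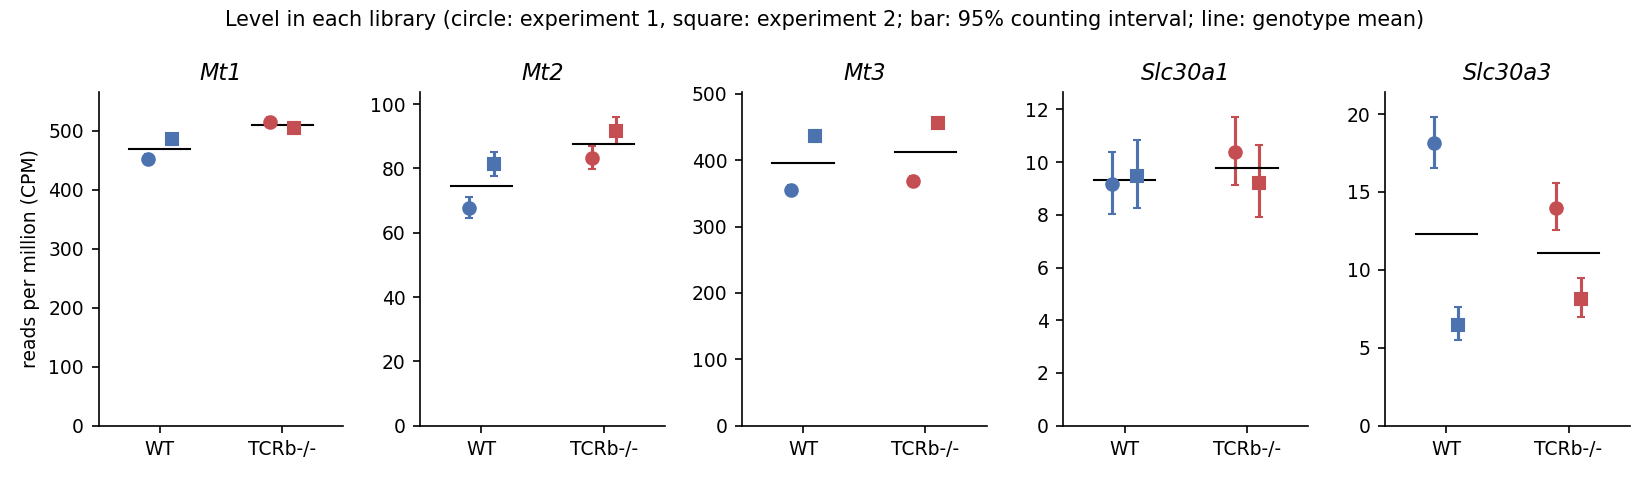
Level of each gene in CPM (linear axes from 0) in the WT (blue) and TCRb-/- (red) libraries of experiment 1 (circles) and experiment 2 (squares), with exact 95% counting intervals and a line at each genotype mean. Mt1 and Mt2 do not overlap between genotypes, Mt3 separates by experiment, and Slc30a3 falls from between 14.0 and 18.1 CPM to between 6.49 and 8.15 CPM in experiment 2.

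Slc30a1, the plasma membrane exporter, had 10.4 and 9.21 CPM in the TCRb-/- libraries of experiments 1 and 2, and 9.16 and 9.48 CPM in WT. These rest on between 184 and 255 reads per library. WT replicate 2 lay between the TCRb-/- libraries and WT replicate 1 just under both, and all 4 counting intervals overlapped. The genotype difference was 0.062 (SE 0.17, adjusted p 1.00 in limma, and SE 0.14, adjusted p 0.976 with the block). It was positive in experiment 1 and negative in experiment 2. Each within-experiment log2 ratio had a counting interval that included 0, from -0.080 to 0.44 and from -0.34 to 0.25. Those intervals leave out the spread between pools, and no genotype difference in Slc30a1 was detected.

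Slc30a3, the vesicular transporter, had 14.0 and 8.15 CPM in the TCRb-/- libraries of experiments 1 and 2, and 18.1 and 6.49 CPM in WT. Both libraries of experiment 1 were well above both of experiment 2, and the genotypes overlapped. The fitted genotype difference was -0.030 (SE 0.49, adjusted p 1.00 in limma, and SE 0.17, adjusted p 0.993 with the block). Its sign turned between experiments, with a TCRb-/- to WT ratio of 0.772 in experiment 1 and 1.26 in experiment 2. The counting interval of the log2 ratio was from -0.58 to -0.17 in experiment 1 and from -0.0012 to 0.66 in experiment 2. Over all genes, 48.4% had opposite signs in the 2 experiments.

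**Figure D3:**
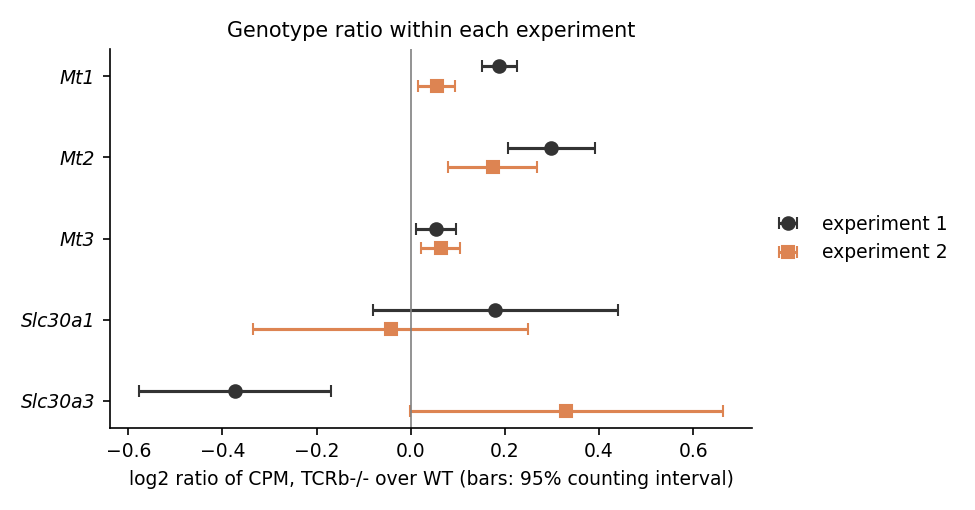
Log2 ratio of CPM, TCRb-/- over WT, for each gene within experiment 1 (circles) and experiment 2 (squares), with bars for the exact 95% counting interval. The 3 metallothionein genes are to the right of 0 in both experiments, Slc30a1 spans 0 in both, and Slc30a3 is at -0.37 in experiment 1 and at 0.33 in experiment 2.

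The difference between experiments gives the scale for these values. In limma, 23.7% of all genes passed, 8.95% higher in experiment 2 and 14.7% lower. Of the members, 1 rose (Mt3) and 1 fell (Slc30a3), while Mt1, Mt2 and Slc30a1 did not pass. With genotype as a term, 24.7% of genes passed and Mt3 and Slc30a3 were again the members called. They were also the members whose experiments did not overlap, Mt3 with both libraries of experiment 2 above (30.1% of genes) and Slc30a3 with both below (37.2% of genes). Slc30a3 was at 16.1 ± 2.92 CPM in experiment 1 and 7.32 ± 1.18 CPM in experiment 2 (SD, n = 2 each), 2.19-fold higher in experiment 1. The log2 difference was -1.03 (SE 0.17, adjusted p 0.00827 in limma), and 1.60% of genes had a larger absolute difference. Experiment 2 was lower in both genotypes, with a difference of -0.71 in TCRb-/- and -1.35 in WT on the log2(CPM + 1) scale.

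Mt3 was at 362 ± 9.55 CPM in experiment 1 and 446 ± 14.0 CPM in experiment 2, 1.23-fold higher. The log2 difference was 0.30 (SE 0.063, adjusted p 0.0162 in limma), with nearly the same size in TCRb-/- (0.30) and WT (0.29). The adjusted p was 0.0787 when variances were moderated without a mean-variance trend, and 0.0792 without TCRb-/- replicate 2. The Mt2 difference was 0.20 (SE 0.11, adjusted p 0.217, and 0.0922 with genotype as a term), the Mt1 difference 0.036 (SE 0.078, adjusted p 0.765) and the Slc30a1 difference -0.055 (SE 0.13, adjusted p 0.790), all in limma. The Slc30a1 sign was positive (0.020) under quantile normalization.

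Transcript length moved with the experiment. Genes with a first transcript under 1000 bases had a median difference of 0.19 between experiments, and 27.4% of the 1196 were called higher in experiment 2. Those of 3000 bases or more had a median of -0.17, and 2.55% were called higher. Called lower in experiment 2 were 3.01% of the genes under 1000 bases and 24.9% of those of 3000 bases or more. Mt1, Mt2 and Mt3 have first transcripts of 549, 511 and 536 bases. Mt3 was thus above the median of short genes, Mt2 close to it and Mt1 below it. The part of length in the Mt3 value was not tested. By genotype the same classes had medians of 0.0083 and -0.015.

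Slc30a3 was read beside the genes of synaptic zinc and the markers of cortical and hippocampal excitatory neurons, where ZnT3 is best known. Slc17a7, which encodes the vesicular glutamate transporter VGLUT1 of those neurons, had 146 and 24.0 CPM in the TCRb-/- libraries of experiments 1 and 2, and 178 and 20.9 CPM in WT. Its difference between experiments was -2.79 (SE 0.11, adjusted p 1.43e-04 in limma). Slc30a3 reads per Slc17a7 read were 0.0957 and 0.102 in experiment 1 (TCRb-/- and WT) and 0.340 and 0.310 in experiment 2. Slc30a3 thus held a larger ratio to Slc17a7 where both were low. Of 8 cortex and hippocampus markers, 6 fell and 0 rose between experiments, where 14.7% of all genes fell and 8.95% rose. Their sum went from between 333 and 383 CPM to between 129 and 139 CPM, with 0 markers at 0. The part of this tissue in the Slc30a3 value was not tested.

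Of 9 listed synaptic zinc genes, 4 fell between experiments and 0 rose, with a median of -0.27 against -0.030 over all genes, of which 14.7% fell. The median was -0.45 without TCRb-/- replicate 2. With genotype as a term 5 fell, Grin1 being added (-0.25, adjusted p 0.0411 in limma). Those that fell in both fits were Slc17a7, Grin2a (-0.87), which encodes a zinc-sensitive NMDA receptor subunit, Shank2 (-0.54), a postsynaptic scaffold, and Ap3d1 (-0.37). Ap3d1 and Ap3b2 encode subunits of the AP-3 adaptor, which sorts ZnT3 to synaptic vesicles. Ap3b2 did not pass between experiments (-0.058, adjusted p 0.801 in limma). By genotype 0 of 9 passed, and the lowest and highest were Ap3b2 (-0.27) and Shank3 (0.17). Gpr39, a zinc-sensing receptor, was not analysed here.

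**Figure D4:**
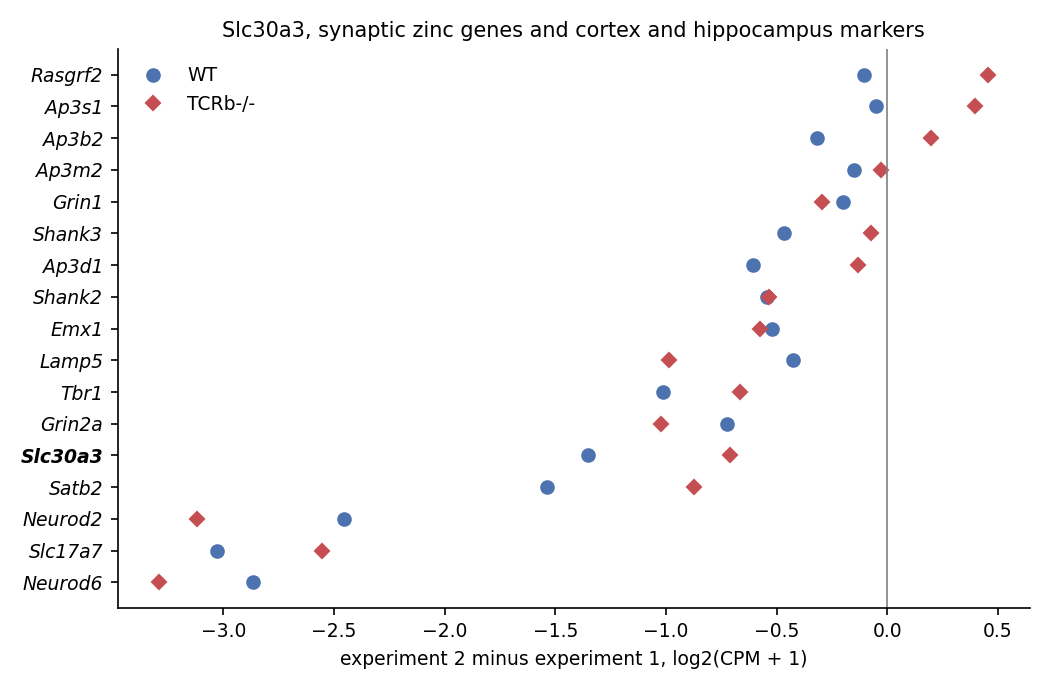
Difference between experiments on the log2(CPM + 1) scale, experiment 2 minus experiment 1, in WT (blue circles) and TCRb-/- (red diamonds), for Slc30a3, synaptic zinc genes and cortex and hippocampus markers, ordered by the fitted difference. Slc30a3 is at -1.35 in WT and -0.71 in TCRb-/-, between Slc17a7 and the AP-3 genes.

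The other ZnT genes, which move zinc out of the cytosol into organelles or out of the cell, were compared next. Of 8 in the list, 7 were listed and 6 tested, and 0 passed by genotype (median 0.080 against 0.00069 over all genes). Within each experiment, TCRb-/- exceeded WT for Slc30a5, Slc30a6, Slc30a7 and Slc30a10, with fitted differences between 0.077 and 0.13. The lowest difference was that of Slc30a9, at -0.010. By direction alone, 4 of 6 thus rose in each pair of pools and 0 fell in each, against 27% and 24.5% of all genes. For 3 of the 6, Slc30a5, Slc30a6 and Slc30a7, the genotypes did not overlap, with both TCRb-/- libraries above both WT libraries. In 0 did both lie below. Over all genes these shares were 9.76% and 8.04%. Between experiments 2 of 6 fell, Slc30a10 (-0.54, adjusted p 0.0205) and Slc30a4 (-0.44, adjusted p 0.0304 in limma). Over all genes 14.7% fell, and 24.9% of those with a first transcript of 3000 bases or more. Slc30a10 and Slc30a4 have first transcripts of 5836 and 5458 bases, and the part of length was not tested. Slc30a10, best known as a manganese exporter, had 16.6 and 10.9 CPM in TCRb-/- and 14.9 and 10.2 CPM in WT. Slc30a9 was the most abundant of the family in reads, between 254 and 266 CPM, and per kilobase (46.2 CPM). Slc30a2 was under 1 CPM on average and was not tested, and Slc30a8 was not analysed here.

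The ZIP genes encode importers, which bring zinc into the cytosol. Of 14, 13 were listed and 12 tested, and 0 passed by genotype. Their median difference was 0.12, and 9 of 12 were higher in TCRb-/- in both experiments and 2 lower in both, against 3760 and 3413 of 13912 genes. The median ranged from 0.019 without TCRb-/- replicate 1 to 0.21 without TCRb-/- replicate 2. Slc39a4, an importer best known from the intestine, had 3.70 and 7.95 CPM in the TCRb-/- libraries of experiments 1 and 2 and 2.06 and 4.20 CPM in WT. It was higher in TCRb-/- in each experiment and higher in experiment 2 in each genotype, as the choroid plexus markers were. Its difference was 0.70, with an SE of 0.41 and an unadjusted p of 0.144 in limma without the block. With the block the SE was 0.17, the unadjusted p 0.00321 and the adjusted p 0.777. Slc39a12, a zinc importer of the brain, had 26.7 and 40.2 CPM against 23.2 and 29.4 CPM in WT (difference 0.32, SE 0.10, unadjusted p 0.0153 and adjusted p 0.848 in limma with the block). Slc39a1 was the lowest, at -0.21. Values of the others tested lay between -0.11 for Slc39a6 and 0.24 for Slc39a14. Between them were Slc39a5, Slc39a7, Slc39a11 and Slc39a13, and Slc39a8 was too low to test.

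Between experiments 3 of 12 ZIP genes fell and 0 rose, where 14.7% of all genes fell and 8.95% rose. With genotype as a term the same 3 fell and 2 rose, Slc39a4 (0.85, adjusted p 0.0117 in limma) and Slc39a12 (0.45, adjusted p 0.0183). Those that fell in both fits were Slc39a10 (-0.57, adjusted p 0.00535), a plasma membrane importer, Slc39a9 (-0.38, adjusted p 0.0158) and Slc39a3 (-0.36, adjusted p 0.0324 in limma). Their first transcripts have 5498, 5201 and 3680 bases, and 24.9% of genes of 3000 bases or more fell. The part of length in these values was not tested. Slc39a10 had 64.3 and 42.6 CPM in the TCRb-/- libraries of experiments 1 and 2 and 63.1 and 42.6 CPM in WT. The genotypes were nearly level within each experiment. Slc39a2 was not analysed here.

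**Figure D5:**
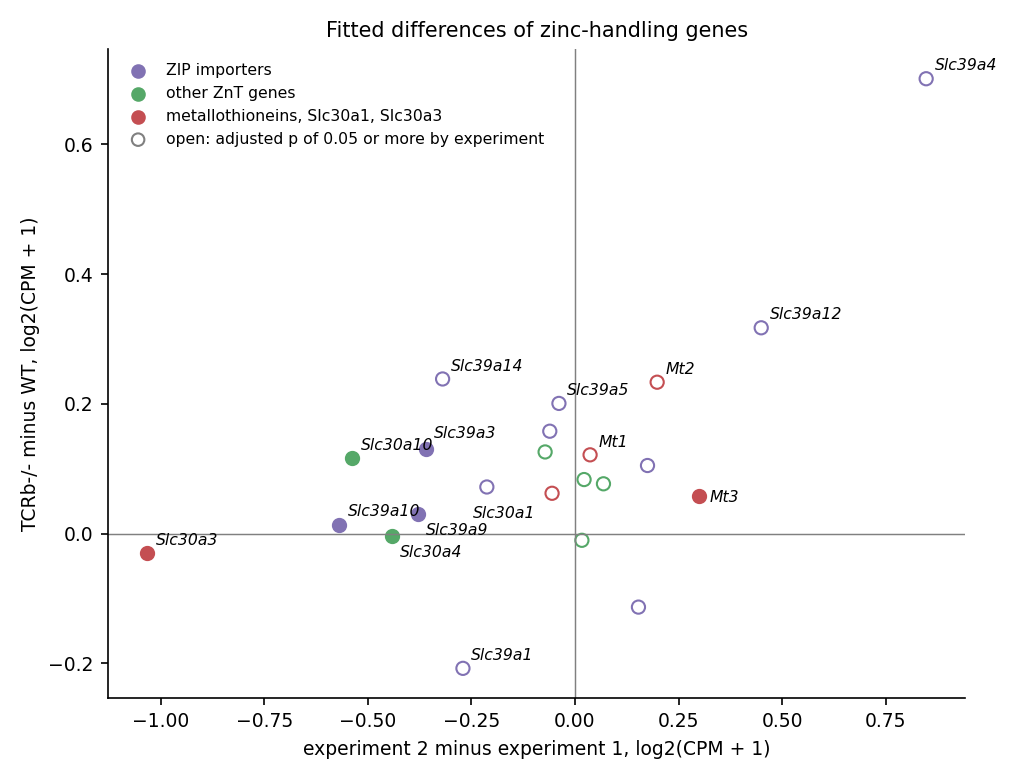
Fitted genotype difference (vertical, TCRb-/- minus WT) against fitted experiment difference (horizontal, experiment 2 minus experiment 1) on the log2(CPM + 1) scale for metallothioneins, ZnT genes and ZIP genes, filled where the experiment difference passed an adjusted p of 0.05. Slc30a3 lies farthest left at -1.03, and Mt3 is the filled point farthest right at 0.30.

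Mtf1, the zinc sensor that drives metallothionein transcription, had 49.3 and 46.7 CPM in TCRb-/- and 49.8 and 51.4 CPM in WT. Both TCRb-/- libraries were below both WT libraries, the opposite order to Mt1 and Mt2, and the difference of -0.074 (SE 0.13) did not pass. In the list of regulators and oxidative-stress targets, 0 of 10 genes passed by genotype, with a median of 0.030. Both TCRb-/- libraries lay above both WT libraries in 2 of the 10 and below them in 3, against 9.76% and 8.04% of all genes. The ends were Nfe2l2 (0.19), the oxidative-stress factor NRF2, and Gclm (-0.13), a glutathione synthesis enzyme. Between experiments 1 gene rose, Nqo1 (0.49), and 2 fell, Txnrd1 (-0.32) and Gclc (-0.25). Over all genes 8.95% rose and 14.7% fell.

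Glucocorticoid-induced genes were compared because Mt1 and Mt2 are known to respond to these hormones. Of 21 tested, 0 passed by genotype, and the median was 0.051. In both experiments 8 were higher and 6 lower in TCRb-/-, against 27% and 24.5% of all genes. Both TCRb-/- libraries lay above both WT libraries in 4 and below them in 4, against 9.76% and 8.04% of genes. The median was -0.014 with a filter at 10 CPM, and ranged from -0.020 (without WT replicate 2, and also without TCRb-/- replicate 1) to 0.12 (without TCRb-/- replicate 2) when single libraries were left out. Nr3c1, the glucocorticoid receptor, was at 87.7 and 82.7 CPM against 89.1 and 88.0 CPM in WT. Tsc22d3 and Fkbp5 had differences of 0.15 and 0.26, Sgk1 one of -0.088, and none was past the threshold. Mfsd2a (0.32) was the highest and Klf9 (-0.23) the lowest. Between experiments 3 fell, Klf9 (-0.63), Hif3a (-0.57) and Fkbp5 (-0.42, adjusted p 0.04998 in limma), and 0 rose, where 14.7% of all genes fell. Hif3a did not pass with genotype as a term (adjusted p 0.0561).

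For each member, the 3 tested genes with the most similar profile over the 4 libraries were found by the root mean square difference of centred log2(CPM + 1) values. For Mt1 they were Hcn2, Tmem259 and Mtrr, within 0.0080, for Mt2 Slc22a5, Espn and Tmem205, within 0.018, and for Mt3 Wbscr27, Dtd1 and Trmt10a, within 0.0078. Alg1, Necap2 and Cfap61 were nearest to Slc30a1, within 0.0092. Such closeness is common for profiles this flat, since between 99 and 560 genes lay within 0.05 of each of these members. For Slc30a3 none did. The nearest were Sv2b, a synaptic vesicle protein, at 0.071, then Sstr4 at 0.091 and Myh11 at 0.094. Sv2b had 90.5 and 47.7 CPM in the TCRb-/- libraries of experiments 1 and 2 and 109 and 42.7 CPM in WT. Its order of libraries was that of Slc30a3.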

How the data were processed

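Per the submitters' processing notes, which name tools with no role or order, HISAT2 2.1.0, SAMtools 1.3, HTSeq 0.9.1, R 4.0.5, limma 3.46.0 and the mm10 build were used. Per the file headers, each deposited file gave a symbol and a log2 value per gene. The deposited log2 values were CPM computed after adding 0.5 to each count and 1 to the total. Solving for the total gave whole reads for 100% of values within 0.001 reads. Rows with under 10 reads in their highest library were not listed, and 17 spike-in rows were left out. Library totals, in reads, were 24585868 (TCRb-/- replicate 1), 19988137 (TCRb-/- replicate 2), 26210790 (WT replicate 1) and 22358674 (WT replicate 2).

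Recovered reads were expressed as CPM and tested as log2(CPM + 1), which understates changes of low genes, in limma 3.58.1 (R 4.3.3) with a mean-variance trend, two-sided, adjusted by Benjamini-Hochberg over all 13912 genes. Genotype was the only term. The experiment pairs the pools per the labels, and deviations of same-numbered libraries correlated at 0.72 across genes. Simulated reads with known genotype changes were run through the fit with and without the block, and set limits were applied only with the block. The simulated spread was fixed in advance and not taken from these pools. Alternatives were the block, other pseudocounts, filters, scalings and moderation, voom weights, and single libraries left out. Intervals are exact Clopper-Pearson at 95%. GENCODE M21 gave coordinates and lengths. Members, lists and the rule for naming genes (all members, listed ZnT and ZIP genes, set regulators, list extremes and calls, markers that a check turned on, and the 3 nearest profiles) were chosen with earlier results of these data known.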

Additional observations from a re-analysis of the deposited data

Results flagged for a closer look

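Slc30a1 and Slc30a3 had genotype differences of opposite sign in the 2 experiments, which have 1 library of each genotype. For Slc30a1, TCRb-/- minus WT was 0.16 in experiment 1 and -0.039 in experiment 2 on the log2(CPM + 1) scale. For Slc30a3 it was -0.35 in experiment 1 and 0.29 in experiment 2. Over all genes 48.4% had opposite signs. The difference between the experiments was not tested, since a single library per genotype in each experiment leaves no replicate.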

How the results depend on the processing

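No member was called by genotype under any alternative, left-out libraries included. The count of all genes called by genotype went from 0 to 2 with the replicate block, alone or with median-of-ratios scaling, a pseudocount of 0.1, quantile normalization or voom weights. With all libraries, the genotype differences ranged from 0.12 to 0.14 for Mt1, from 0.22 to 0.25 for Mt2, from 0.054 to 0.085 for Mt3, from 0.046 to 0.079 for Slc30a1 and from -0.16 to -0.022 for Slc30a3. The count of all genes called between experiments went from 3292 to 629 without a trend and to 0 with the replicate block and no trend, and the members called from 2 to 1 (Slc30a3) and 0. Quantile normalization moved the share of higher calls from 37.8% to 50.6%. The Slc30a1 difference between experiments was positive (0.020) once values were quantile normalized, whether or not the block was used. The ZIP median between experiments was -0.27 with a filter at 10 CPM, where fewer genes are tested. Slc30a1 has no value under that filter. Why the trend mattered was not tested.

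Leaving out 1 library leaves a lone sample, whose spread is taken from the other genotype, and by construction makes the experiments unequal. Counts then ranged from 0 to 38 genes by genotype (38 without TCRb-/- replicate 1, 1 without TCRb-/- replicate 2), from 1379 to 3395 genes between experiments (1379, 1797 and 1680 without TCRb-/- replicate 1, TCRb-/- replicate 2 and WT replicate 1) and from 1 to 2 members between experiments, with Mt3 lost without TCRb-/- replicate 2. Genotype differences ranged from 0.070 to 0.17 for Mt1, from 0.10 to 0.36 for Mt2, from -0.094 to 0.21 for Mt3, from -0.016 to 0.14 for Slc30a1 and from -0.71 to 0.65 for Slc30a3. Between experiments Mt1 ranged from -0.058 to 0.13, Mt2 from 0.051 (without WT replicate 1) to 0.35 (without TCRb-/- replicate 1) and Slc30a1 from -0.14 to 0.026. Genotype medians ranged from 0.017 to 0.12 for the other ZnT genes, from -0.015 to 0.0042 for regulators, from -0.28 to 0.23 for synaptic zinc genes, from -0.10 to 0.14 for copper genes and from -0.074 to 0.064 for iron genes. One read is worth between 0.0382 and 0.050 CPM, so counting error is larger for Slc30a1 and Slc30a3 than for the metallothioneins.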

Other observations

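Copper is the other metal that metallothioneins bind. Of 10 tested copper-handling genes, 2 rose between experiments and 0 fell, where 8.95% of all genes rose and 14.7% fell. Their median was 0.22, against -0.030 over all genes and 0.19 over genes with a first transcript under 1000 bases. Those that rose were Slc31a1, the copper importer CTR1 (0.63, adjusted p 0.00860 in limma), and Atox1, a copper chaperone (0.51, adjusted p 0.00678). Their first transcripts have 3718 and 541 bases, and the part of length was not tested. Atox1 had 81.1 and 114 CPM in the TCRb-/- libraries of experiments 1 and 2 and 73.7 and 107 CPM in WT, so each library of experiment 2 was above each of experiment 1, as for Mt3. By genotype 0 of 10 passed, and the ends of the list were Slc31a1 (0.20) and Cox17 (-0.18), a copper chaperone of mitochondria. Sco2 was not analysed here.

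Of 8 iron-handling genes, 0 passed by genotype (median 0.032), with Slc40a1, the iron exporter ferroportin, highest (0.13) and Ireb2, an iron-regulatory protein, lowest (-0.22). Between experiments only Tfrc, the transferrin receptor, passed among the 8 (-0.31, adjusted p 0.0477 in limma), where 23.7% of all genes passed. With genotype as a term 0 passed (Tfrc adjusted p 0.0528 in limma), against 24.7% of all genes.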
